A study of Mus musculus with 18 samples.

Results

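Solute carriers are the membrane proteins that move small molecules into, out of and within cells, and the genes described here are those expressed in mouse macrophages grown from bone marrow. The genes were chosen as rows whose symbol starts with Slc and a digit and whose mean over the 18 columns of the table was at least 1 RPKM (reads per kilobase of gene and scaled to the library's total of reads). A fixed set of 11 further Slc genes that met this level was left out by the rule, among them those of the glucose carrier Slc2a1 and the iron exporter Slc40a1. Of 11164 genes in the table, 180 were Slc genes, 143 reached the mean of 1 RPKM and 132 are described here. They were thus selected on their mean RPKM, and the levels themselves are a description. Of the 132 genes, 3 are merely named after a carrier and encode no numbered transporter (Slc7a6os, Slc4a1ap and Slc9a3r1).

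The macrophages came from C57BL/6J mice, either wild type (WT) or lacking the cytokine BAFF (BAFF KO) or APRIL (APRIL KO), which belong to the tumour necrosis factor family. They were left unstimulated or given 10 ng/ml of lipopolysaccharide (LPS), a part of the outer membrane of bacteria to which macrophages respond through Toll-like receptor 4, for 4 h, and the labels of all groups also carry a day of gestation and preterm birth. The columns carry 9 JD numbers, taken here as 9 libraries: 1 unstimulated and 2 LPS libraries per genotype. Each JD number has 2 columns with neighbouring S numbers, called index numbers here, and these columns were averaged. The titles number the columns as replicates, up to 2 unstimulated and up to 4 with LPS per genotype, and do not name libraries. The labels say neither how the alleles were made nor whether libraries came from separate mice, so p-values cover no more than library-to-library spread, which may be technical.

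The depth was 5121833 to 6020780 reads per library over all genes of the table. The gene for APRIL, Tnfsf13, had 119 to 486 reads in each WT and BAFF KO library and 0 in each of the 3 APRIL KO libraries, while the gene for BAFF was not analysed here. Together, 7 macrophage markers reached 4482 to 7565 RPKM per library, of which Lyz2 alone made up 2816 to 5272. Neutrophil markers were also present, with a summed level of 1561 to 5940 RPKM over 10 genes, and their source was not tested. In bulk RNA, fewer cells of a type and less RNA per cell cannot be told apart.

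As background, the families of solute carriers are numbered by sequence and each tends to a kind of cargo. Plasma membrane carriers bring in sugars, amino acids, nucleosides, choline and metals, lysosomal carriers return the products of digestion to the cytosol, and the Slc25 family exchanges metabolites across the inner mitochondrial membrane. Macrophages given LPS are known to shift toward glycolysis and to change how they handle iron, zinc, arginine and citrate, which all need carriers.

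The carriers differed widely in level. Of the 132 genes, 5 had a mean of at least 100 RPKM, 38 lay between 10 and 100 and 89 between 1 and 10, with a median of 6.27 RPKM. The 5 highest were Slc15a3, a peptide and histidine carrier of lysosomes (272 RPKM over the 18 columns), Slc28a2, which takes up purine nucleosides with sodium (256), Slc25a3, the mitochondrial phosphate carrier (148), Slc25a5, an exchanger of ATP and ADP (109), and Slc2a6, a member of the facilitative glucose carrier family (100.3). Without LPS the order was another one: Slc25a3 stood at 182 ± 20.7 RPKM (SD, n = 3 unstimulated libraries), Slc25a5 at 147 ± 11.5, Slc37a2, a sugar phosphate carrier, at 139 ± 28.01, and Slc27a1, a fatty acid transport protein, at 133 ± 14.5. In this order the last 3 differ from their neighbours by less than the larger of their SDs, while Slc25a3 stands above them by more. Slc28a2 was then at 17.4 ± 1.54 RPKM and Slc2a6 at 12.7 ± 1.18.

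At the edge of the selection, Slc46a3 (1.004 RPKM), Slc10a3 (1.02) and Slc2a8 (1.055) lay just inside, and Slc17a9 (0.957), Slc15a2 (0.975) and Slc35e3 (0.976) just outside. The threshold favours carriers that LPS raises, since LPS columns weigh more in the mean: of the 37 Slc genes below it, 7 had an unstimulated mean of at least 1 RPKM and 1 had an LPS mean that high. All 132 genes passed the filter for testing (a mean of 1 RPKM in at least 1 group), and 103 were at 1 RPKM or more in every column. In 6 genes at least 1 library had fewer than 10 reads, down to 1 read.

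How LPS changed the carriers was asked first, averaged over the 3 genotypes. LPS raised a few carriers strongly and lowered many: 23 of 132 were higher (17.4%, against 18.1% of all 9934 genes tested) and 91 were lower (68.9%, against 62.1% of all genes). Calls are from limma on log2(RPKM + 1) with a Benjamini-Hochberg adjusted p below 0.05 over all genes, and differences below are on this scale, which understates those of low genes. The median difference was -0.58 for the carriers and -0.44 for all genes. RPKM is relative to the reads of a library, so it was also set by median ratio scaling, which centres all genes near 0 (median -0.02). After it 33 carriers were higher (25%, against 30.8% of all genes) and 53 lower (40.2%, against 30.3%), with a median of -0.15. For calls under both scalings, counted next, the share of all genes is not given here, so these counts are a description. All 23 rises and 53 of the 91 falls were called under both scalings, while 37 of the falls lost the call and 1, that of Slc9a3r1, turned into a rise (its fall was also lost without BAFF KO unstimulated replicate 1-2, adjusted p = 0.268).

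Direction was mostly common to the genotypes, with the same sign in all 3 for 109 of the 114 called carriers (95.6%, against 94.7% of all called genes). In 19 of the rises (14.4% of carriers, against 14.1% of all genes) and 74 of the falls (56.1% against 48.8%), the 6 LPS libraries did not overlap the 3 unstimulated ones. Rises of more than 1 on the log2 scale were called in 7 carriers (5.3%, against 8.28% of all genes) and falls of more than 1 in 31 (23.5%, against 15.6%). Most of the 114 calls held whichever of the 9 libraries was left out. The share of all called genes that did so is not given here. Marker levels moved with LPS as well: neutrophil markers summed to 2827 to 5940 RPKM without and 1561 to 2952 with LPS (9 of 10 lower), and macrophage markers to 6865 to 7565 and 4482 to 5157 (4 of 7 lower, 2 higher). Their part in the carrier changes was not tested. In the plot of the LPS difference by family class, the far right holds Slc28a2 and Slc2a6 alone.

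**Figure D1:**
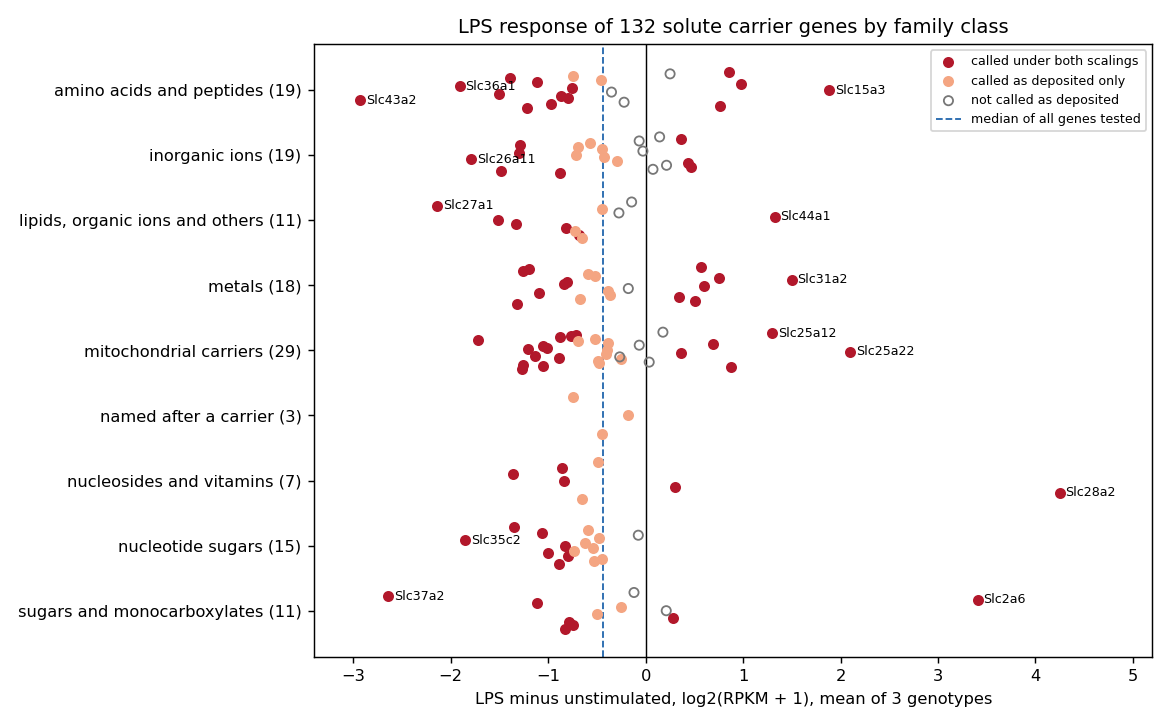
LPS minus unstimulated difference on the log2(RPKM + 1) scale (mean of 3 genotypes) for each of the 132 genes (points), by class with the number of genes in brackets; filled dark points were called under both scalings, pale ones as deposited only, open ones were not called, and the dashed line is the median of all genes tested (-0.44). Slc28a2 (4.25) and Slc2a6 (3.41) lie farthest right, Slc43a2 (-2.93) and Slc37a2 (-2.64) farthest left.

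Among the rises, the purine nucleoside carrier Slc28a2 (ENSMUSG00000027219, mm10 chr2:122426477-122461137, plus strand) moved furthest. Unstimulated libraries had 17.5 RPKM in WT, 15.8 in BAFF KO and 18.9 in APRIL KO, and LPS libraries had 427 and 456 in WT, 187 and 204 in BAFF KO and 484 and 495 in APRIL KO. Every LPS library lay far above every unstimulated one, with the BAFF KO pair apart from the other 4. The mean went from 17.4 ± 1.54 (SD, n = 3) to 375.5 ± 142 RPKM (SD, n = 6), 21.6-fold higher, and the log2 difference was 4.25 ± 0.058 (SE; limma adjusted p = 1.12e-09).

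Slc2a6 (ENSMUSG00000036067, mm10 chr2:27021363-27027998, minus strand), of the glucose carrier family and found on lysosomes, went from 13.4, 13.3 and 11.3 RPKM in the 3 unstimulated libraries to between 132 and 161 (median 139.7) with LPS. The BAFF KO pair, at 160.9 and 160.2 RPKM, lay above the LPS libraries of WT and APRIL KO (131.7 to 143.1). Its difference from WT was not called (limma adjusted p = 0.0978). Over all 6 LPS libraries the mean of Slc2a6 was 11.4-fold higher. Its log2 difference was 3.41 ± 0.058 (SE; limma adjusted p = 3.19e-09). Slc15a3 (ENSMUSG00000024737, mm10 chr19:10839727-10859362, plus strand) started from 97.3, 106 and 87.3 RPKM and stood between 301 and 399.5 (median 362) with LPS. It was below Slc28a2 in the LPS libraries of WT and APRIL KO and above it in both of BAFF KO. This lysosomal peptide carrier rose by 1.88 ± 0.071 (SE; limma adjusted p = 2.44e-07). Since 28.1% of its exon bases lie under Tmem132a on the opposite strand, and whether counting used strand is not given in the sources used here, part of its reads could belong there.

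Within the Slc25 family, the relatives Slc25a12 and Slc25a13 moved in opposite directions. Slc25a22, a mitochondrial glutamate carrier, went from 8.19, 6.44 and 7.85 RPKM to between 31.6 and 37.5 (log2 difference 2.10, adjusted p = 1.15e-07). Slc25a12, an exchanger of aspartate for glutamate, went from 6.89, 6.65 and 6.12 RPKM to between 15.9 and 20.97 (1.30, adjusted p = 3.62e-06). Slc25a13, which does the same exchange, fell from a mean of 7.57 to 3.14 RPKM (-1.06, adjusted p = 4.94e-05). Slc25a17, a carrier of the same family that sits in peroxisomes, went from 18.3, 17.7 and 19.8 RPKM to between 30.9 and 39.8 (0.88).

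Other large rises were spread over copper, zinc, choline and amino acids. Slc31a2, related to the copper importer Slc31a1, went from 5.01, 3.85 and 6.10 RPKM to between 12.04 and 19.4 with LPS (log2 difference 1.50). Slc44a1, which takes up choline, the building block of phosphatidylcholine, went from 22.6, 14.7 and 24.7 RPKM to between 42.01 and 60.0 (1.32). Of the amino acid carriers, Slc7a7, the light chain of an exchanger of cationic and neutral amino acids, rose by 0.98, the glutamine carrier Slc38a1 by 0.86 and the neutral amino acid exchanger subunit Slc7a8 by 0.76. Slc30a4, which loads zinc into vesicles, was low throughout (0.790 to 2.11 RPKM unstimulated) and rose to between 2.26 and 4.17 (0.76). These 12 rises were picked among carriers called under both scalings whose LPS and unstimulated libraries did not overlap. The gap in the plot of single libraries thus follows from the choice.

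The falls were led by carriers of amino acids, sugar phosphates and fatty acids. Slc43a2 (ENSMUSG00000038178, mm10 chr11:75531694-75577575, plus strand), a carrier of large neutral amino acids such as leucine and methionine, had 21.5, 18.2 and 35 RPKM in unstimulated WT, BAFF KO and APRIL KO. With LPS it had 1.42 and 1.70 in WT, 2.94 and 3.32 in BAFF KO and 2.05 and 2.69 in APRIL KO, and so 10.6-fold less on average. The log2 difference was -2.93 ± 0.112 (SE; limma adjusted p = 2.61e-07).

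Slc37a2 (ENSMUSG00000032122, mm10 chr9:37227585-37255738, minus strand), a sugar phosphate exchanger of the endoplasmic reticulum, fell from 145, 108 and 163.5 RPKM to between 16.9 and 25.3 (log2 difference -2.64 ± 0.068, SE; limma adjusted p = 2.71e-08). Slc27a1 (ENSMUSG00000031808, mm10 chr8:71568882-71587302, plus strand), which aids the uptake of long-chain fatty acids, fell from 144, 117 and 139 RPKM to between 27.3 and 32.98 (-2.14, adjusted p = 4.37e-08). Slc6a8, the creatine carrier, fell from 99.2, 76.3 and 93.5 RPKM to between 27.6 and 33.8 (-1.51). These abundant carriers left their places near the top.

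Of the other large falls, Slc36a1 and Slc36a4, amino acid carriers of the proton-assisted family, went from means of 8.13 and 4.22 RPKM to 1.45 and 0.960. Slc35c2, a Golgi protein linked to the supply of GDP-fucose, fell by 1.85, the sulfate carrier family member Slc26a11 by 1.79, the mitochondrial carrier Slc25a30 by 1.72 and Slc22a4, which takes up the antioxidant ergothioneine, by 1.52. Slc8b1, which exchanges sodium for calcium at the inner mitochondrial membrane, fell from 41.2, 45.1 and 45.7 RPKM to between 13.1 and 17.7. The folate carrier Slc46a1 fell by 1.36, but from few reads (24 to 41 unstimulated and 2 to 12 with LPS). The 12 falls were picked by the same rule as the rises. Their call under both scalings and the lack of overlap thus follow from the choice. In each of the 12 the call held whichever of the 9 libraries was left out.

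**Figure D2:**
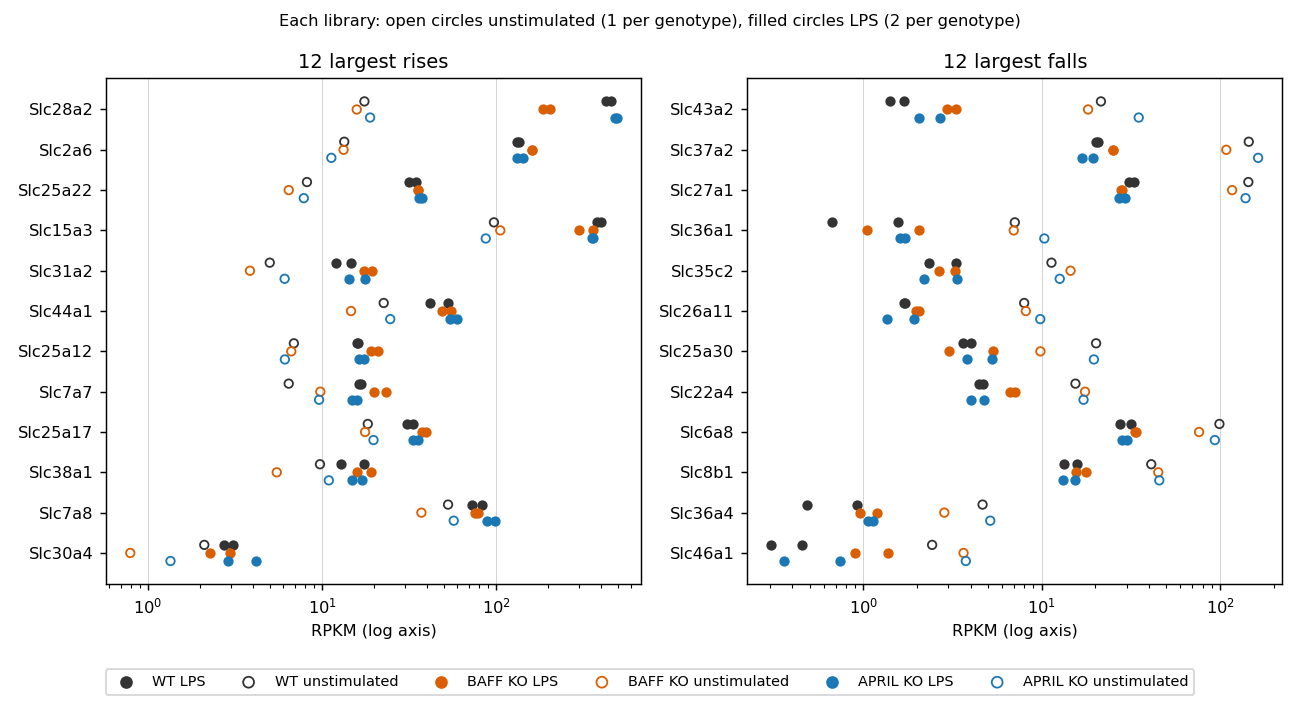
RPKM (log axis) of the 12 largest rises (left) and 12 largest falls (right) in each of the 9 libraries; open circles are the unstimulated library of a genotype and filled circles its 2 LPS libraries, coloured by genotype. Rows were picked among genes whose open and filled circles do not overlap. Slc28a2 in BAFF KO (187 and 204 RPKM) lies apart from WT and APRIL KO (427 to 495 RPKM).

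The promoters of the 2 largest rises and the 2 largest falls are shown to set carriers that moved in opposite directions side by side. Each is the 250 bases before the RefSeq start on GRCm38.p6, 5′ to 3′ on the strand of the gene. For Slc43a2 it is the first of 2 windows.
Slc28a2 (chr2:122426185-122426434, plus strand): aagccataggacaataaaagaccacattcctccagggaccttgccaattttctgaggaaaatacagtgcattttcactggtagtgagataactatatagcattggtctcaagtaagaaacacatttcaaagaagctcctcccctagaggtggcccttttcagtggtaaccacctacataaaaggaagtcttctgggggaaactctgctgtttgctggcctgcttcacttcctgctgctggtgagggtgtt
Slc2a6 (chr2:27027999-27028248, minus strand): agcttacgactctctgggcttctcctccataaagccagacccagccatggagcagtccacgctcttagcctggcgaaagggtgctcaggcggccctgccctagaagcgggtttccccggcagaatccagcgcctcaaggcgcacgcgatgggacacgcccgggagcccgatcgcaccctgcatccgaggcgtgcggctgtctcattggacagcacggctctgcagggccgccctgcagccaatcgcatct
Slc43a2 (chr11:75531444-75531693, plus strand): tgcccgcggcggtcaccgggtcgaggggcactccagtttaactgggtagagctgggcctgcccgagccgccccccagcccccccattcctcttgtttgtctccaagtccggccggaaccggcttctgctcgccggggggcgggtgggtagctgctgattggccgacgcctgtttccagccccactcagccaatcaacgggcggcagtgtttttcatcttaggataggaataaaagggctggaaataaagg
Slc37a2 (chr9:37255739-37255988, minus strand): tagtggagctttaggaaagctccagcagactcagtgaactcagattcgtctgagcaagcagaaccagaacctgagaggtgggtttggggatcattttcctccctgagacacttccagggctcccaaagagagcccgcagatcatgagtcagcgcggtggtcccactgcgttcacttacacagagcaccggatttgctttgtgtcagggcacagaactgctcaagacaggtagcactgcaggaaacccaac
They were searched, with the 50 bases after the start, on both strands for GAAANNGAA (the letters of an interferon response element), GGGNNTTTC (NF-kB), TTGCATCA (the composite site of ATF4) and TCACGTGA (the site of TFEB, a factor that drives lysosomal genes). None of these letters occurred in the 4 windows, which says nothing about binding of the factors.

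A window was found for 105 of the 132 genes. The interferon letters were in 6.67% of them, against 9.76% of all 27025 genes with a window, and the NF-kB letters in 4.76% against 5.06%. The ATF4 letters were in 1.9% against 1.03%, which is 2 genes, and the TFEB letters in 3.81% against 1.12%, which is 4 genes. Of the 20 rises under both scalings with a window, 2 held the interferon letters and 2 the NF-kB letters. Of the 40 such falls, 3 held the interferon letters (Slc27a1, Slc35f6 and Slc38a9) and 1 the NF-kB letters (Slc37a4). The ATF4 letters were in 1 rise, Slc7a7, and 1 fall, Slc50a1. The stretches below show the 4 rises with interferon or NF-kB letters and 1 fall with the TFEB letters, with the matched letters in capitals.
Slc25a22 (chr7:141435430-141435470, minus strand): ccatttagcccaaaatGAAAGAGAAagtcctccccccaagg
Slc7a8 (chr14:54781933-54781973, minus strand): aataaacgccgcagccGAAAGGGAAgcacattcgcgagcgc
Slc31a2 (chr4:62286280-62286320, plus strand): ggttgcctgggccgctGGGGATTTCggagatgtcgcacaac
Slc25a17 (chr15:81360877-81360917, minus strand): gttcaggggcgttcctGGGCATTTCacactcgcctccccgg
Slc36a1 (chr11:55204320-55204359, plus strand): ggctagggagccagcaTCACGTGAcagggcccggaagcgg
In Slc36a1 the TFEB letters begin 4 bases before the start, and this proton-coupled lysosomal carrier fell by 1.91. The same letters lay in the window of Slc37a3, which had a difference of 0.28 whose call was lost in 8 of 9 left-out libraries (adjusted p up to 0.127), and of Slc25a36 and Slc35a5, which fell by 0.72 and 0.73 (the fall of Slc35a5 as deposited only). A match is a description of the letters and not a binding site.

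Counts by cargo under both scalings are descriptions, since the share of all genes called under both is not given here. Class medians as deposited ran from -0.75 (amino acids and peptides) to -0.43 (inorganic ions), against -0.44 for all genes. After scaling they ran from -0.32 (nucleotide sugars) to 0.03 (genes named after a carrier), against -0.02. Whether a class departs from all genes was not tested. Amino acid and peptide carriers were split, with 4 of 19 higher under both scalings (Slc15a3, Slc7a7, Slc38a1 and Slc7a8) and 10 lower. Beside those already named, the glutamine carrier Slc1a5 fell from a mean of 12.7 to 4.98 RPKM (-1.21), the lysosomal glutamine carrier Slc38a7 from 16.1 to 6.96 (-1.11) and Slc38a2 from 34.5 to 18.7 (-0.80). The libraries of Slc38a2 overlapped, and its difference was -1.28 in WT and -0.95 in APRIL KO but -0.17 in BAFF KO. Slc38a9, the lysosomal carrier that reports arginine to mTORC1, fell by 0.75. In the peptide carriers of lysosomes, Slc15a3 rose while its relative Slc15a4 fell by 0.75 as deposited and was not called after median ratio scaling (-0.28). The cationic amino acid carrier Slc7a1 likewise fell as deposited only (-0.46 and, after scaling, -0.09), and lost the call without the unstimulated library of WT or of APRIL KO (adjusted p up to 0.212).

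The Slc25 family, of mitochondrial carriers and the peroxisomal Slc25a17, had 5 rises and 12 falls of 29 under both scalings. The rises were Slc25a22, Slc25a12, Slc25a17, Slc25a37, which imports iron for heme and iron-sulfur clusters (0.69), and Slc25a25, a carrier of ATP-Mg (0.36, lost without BAFF KO unstimulated replicate 1-2 at an adjusted p of 0.208). Among the falls, Slc25a39, needed for mitochondrial glutathione, went from a mean of 59.7 to 24.4 RPKM (-1.26), Slc25a11, the carrier of oxoglutarate and malate, from 41.7 to 19.7 (-1.05) and Slc25a20, which brings in acylcarnitines for fatty acid oxidation, from 17.5 to 9.14 (-0.88). The abundant Slc25a3 and Slc25a5 fell as deposited (-0.48 and -0.69) but not after median ratio scaling (0.04 and -0.18). Slc25a1, which exports citrate, stood at 29.1 RPKM unstimulated and 27.6 with LPS, was not called as deposited (-0.07) and was higher after scaling (0.43).

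Metal carriers had 6 rises and 6 falls of 18 under both scalings. The rises were both copper carriers, Slc31a2 and Slc31a1 (1.50 and 0.34), the zinc carriers that load vesicles and the Golgi, Slc30a4, Slc30a7 and Slc30a6 (0.76, 0.59 and 0.57), and the zinc importer Slc39a1 (0.51). The call of Slc31a1 was lost without APRIL KO unstimulated replicate 1-2 (adjusted p = 0.0577). Falls were Slc30a5 (27.2 to 10.3 RPKM, -1.32), the heme carrier Slc48a1 (14.1 to 5.58, -1.26), Slc39a10 (-1.20), the magnesium carrier family member Slc41a3 (-1.10), Slc39a4 (-0.84) and Slc39a6 (-0.81). Within the Slc30 family, which moves zinc out of the cytosol, genes therefore moved both ways.

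The 15 genes of the Slc35 family were classed by family number as nucleotide sugar carriers, which feed glycosylation in the Golgi and endoplasmic reticulum. Whether each of them carries a nucleotide sugar was not checked. The class had no rise under either scaling, with 14 falls as deposited and 7 after median ratio scaling. The class median was -0.73 as deposited and -0.32 after scaling, against -0.44 and -0.02 for all genes. Slc35c2 and Slc35f6 fell furthest (-1.85 and -1.35), followed by Slc35a1, which carries the activated sialic acid CMP-sialic acid (-1.06). The most abundant, Slc35f5, went from 47.2 to 32.2 RPKM, a fall as deposited only.

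Carriers of sugars and monocarboxylates had 2 rises (Slc2a6 and the small one of Slc37a3, whose call was lost without any 1 library but BAFF KO LPS replicate 1-2) and 5 falls of 11 under both scalings. Slc37a4, which brings glucose 6-phosphate into the endoplasmic reticulum, fell from 4.82 to 1.71 RPKM (-1.11) and the glucose carrier Slc2a3 from 3.71 to 1.74 (-0.79). The lactate carriers Slc16a3, at 3.68 and 3.37 RPKM (-0.12), and Slc16a1, at 1.28 and 1.64 (0.21), were not called as deposited. After median ratio scaling Slc16a1 was called higher (0.50).

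Inorganic ion carriers had 3 rises (Slc12a7, Slc12a4 and Slc4a7) and 5 falls of 19 under both scalings, and the split turned most with scaling: 3 higher and 11 lower as deposited became 8 higher and 5 lower. The sulfate and anion carriers Slc26a11 and Slc26a6 fell (-1.79 and -1.29), as did Slc20a1, a sodium-coupled importer of phosphate (16.3 to 6.20 RPKM, -1.28). The potassium-chloride carriers Slc12a4 and Slc12a7 rose on average (0.43 and 0.47), but in all 3 rises of this class the libraries overlapped. The difference of Slc12a4 was 0.16 in BAFF KO against 0.51 in WT and 0.62 in APRIL KO. That of Slc12a7 was 1.15 in BAFF KO against 0.09 in WT and 0.17 in APRIL KO. The call of Slc12a7 was lost without BAFF KO unstimulated replicate 1-2 (adjusted p = 0.496). Carriers of lipids and organic ions had 1 rise, that of Slc44a1, and 5 falls of 11 under both scalings, among them Slc17a5, which exports sialic acid from lysosomes (-1.33). Of 7 carriers of nucleosides and vitamins, Slc28a2 and, on average over genotypes, the ascorbate carrier Slc23a2 (0.30) rose and 3 fell, while the equilibrative nucleoside carrier Slc29a1 fell as deposited only (-0.49, and 0.00 after scaling). The LPS difference of Slc23a2 was 1.09 in BAFF KO, -0.21 in WT and 0.03 in APRIL KO, and its call was lost without any 1 of the 3 BAFF KO libraries or APRIL KO LPS replicate 3-4 (adjusted p up to 0.522). Slc7a6os, Slc4a1ap and Slc9a3r1, named after carriers, were lower as deposited and none was lower after scaling.

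Summed over the 132 genes, solute carrier RNA stood at 2110 to 2280 RPKM in unstimulated and 2067 to 2394 in LPS libraries as deposited, and at 1704 to 1746 and 2270.0 to 2689 after median ratio scaling, so whether the total rose depends on the scaling. Its make-up differed between the conditions under either. The 3 most abundant carriers under LPS, Slc28a2, Slc15a3 and Slc2a6, picked after their levels were seen, made up 5.16 to 6.4% of the sum in unstimulated libraries and 32.2 to 42.2% in LPS libraries. In the LPS libraries of BAFF KO they made up 33.4 and 32.2%, against 40.4 and 42.2% in WT and 41.9 and 41.1% in APRIL KO. The other 129 genes together had 1975 to 2158 RPKM unstimulated and 1358 to 1413 with LPS as deposited, while after median ratio scaling the sums were close, at 1595 to 1656 and 1522 to 1586.

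**Figure D3:**
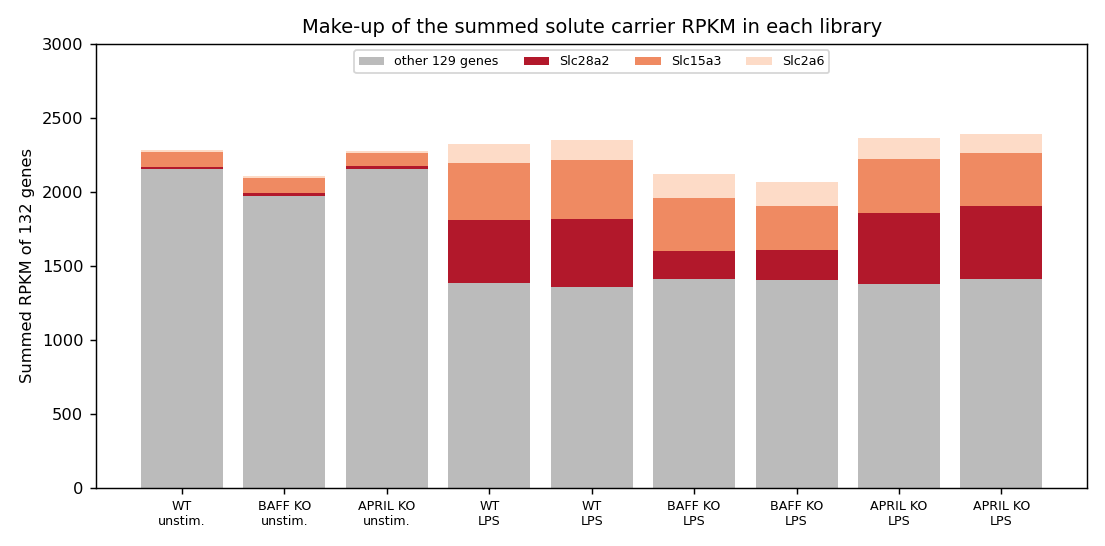
Summed RPKM, as deposited, of the 132 genes in each of the 9 libraries (bars from 0), split into Slc28a2, Slc15a3, Slc2a6 and the other 129 genes. The totals lie between 2067 and 2394 RPKM, while the 3 coloured genes make up 5.16 to 6.4% without LPS and 32.2 to 42.2% with it.

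The next comparison asked how carriers in BAFF KO differed from WT under LPS. Of 132 genes, 5 were higher in BAFF KO (against 3.99% of all genes) and 4 were lower (against 4.35%), by the same limma test on 2 libraries against 2. The lower ones were Slc28a2 and 3 carriers of inorganic ions, and the higher ones carry amino acids, choline, carnitine and mitochondrial substrates. Both counts lie near the share of all genes.

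Slc28a2 had 187 and 204 RPKM in BAFF KO with LPS, against 427 and 456 in WT. On average it was 2.26-fold higher in WT (log2 difference -1.17 ± 0.083, SE; limma adjusted p = 0.000528). Slc12a4, a potassium-chloride carrier that helps set cell volume, had 18.01 and 20.2 RPKM in BAFF KO and 33.7 and 34.4 in WT (-0.80 ± 0.111, SE; limma adjusted p = 0.00639). The pairs did not overlap in either gene. Slc20a1, the phosphate importer, had 3.75 and 4.28 against 7.16 and 7.19 RPKM (-0.71, adjusted p = 0.028), and the chloride-bicarbonate exchanger Slc4a2 had 14.9 and 15.1 against 19.6 and 20.6 (-0.40, adjusted p = 0.0441).

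In unstimulated cells too, the single BAFF KO library was below that of WT for these 3 ion carriers, with 16.98 against 23.6 RPKM for Slc12a4, 12.4 against 18.7 for Slc20a1 and 17.2 against 21.1 for Slc4a2. The difference of their LPS response between BAFF KO and WT was not called (adjusted p = 0.33, 0.775 and 0.71). For Slc28a2 the unstimulated libraries had 15.8 and 17.5 RPKM.

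Of the higher carriers, Slc44a2, a choline carrier-like protein, was the most even, with 25.95 and 26.08 RPKM in BAFF KO and 16.9 in both WT libraries (0.59 ± 0.098, SE; limma adjusted p = 0.0122). Slc25a45, a mitochondrial carrier, had 10.0 and 6.31 against 2.67 and 3.94 RPKM (1.08, adjusted p = 0.0299). Slc43a2, the leading fall with LPS, had 2.94 and 3.32 against 1.42 and 1.70 RPKM (0.69, adjusted p = 0.0397). Slc22a5, which takes up carnitine for fatty acid oxidation, had 3.72 and 3.19 against 1.58 and 1.68 RPKM (0.76, adjusted p = 0.0419), and Slc25a10, the mitochondrial dicarboxylate carrier, 9.16 and 8.41 against 5.17 and 5.88 (0.59, adjusted p = 0.0371). For Slc22a5, 15.3% of its 85-base stretches occur elsewhere, most in its relative Slc22a21, so how reads were split between them is uncertain.

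Slc28a2 alone kept the call against WT whichever of the 9 libraries was left out (adjusted p from 0.000467 to 0.0123). Slc12a4 lost it only without BAFF KO LPS replicate 1-2 (adjusted p = 0.0557), and the other 7 lost it without at least 4 of the libraries. Without WT LPS replicate 1-2 or WT LPS replicate 3-4, none of the higher carriers named above kept the call. The difference of each called carrier kept its sign whichever library was left out.

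Markers of other cells moved with this comparison. Of 10 neutrophil markers 7 were higher in BAFF KO than WT under LPS, and their summed level was 2558 to 2952 RPKM in BAFF KO, 1561 to 1969 in WT and 1818 to 1850 in APRIL KO. Of 9 tested skeletal muscle markers 8 were lower in BAFF KO than WT, with sums of 31.7 to 40.6, 188 to 267 and 21.5 to 50.9 RPKM in BAFF KO, WT and APRIL KO. Their part in the carrier differences was not tested.

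Between the knockouts under LPS, 2 carriers were higher in BAFF KO than APRIL KO (against 2.48% of all genes) and 6 lower (against 3.06%). The BAFF KO libraries are the same as above. Of the markers, 6 of 10 for neutrophils were higher in BAFF KO, 2 of 3 for T and B cells were lower, 1 of 7 for macrophages was higher and 2 were lower, and their part was not tested. Slc28a2, at 484 and 495 RPKM in APRIL KO, was 2.51-fold higher there (-1.32 ± 0.083, SE; limma adjusted p = 0.000337), and Slc12a4, at 34.1 and 39.8, was 1.93-fold higher (-0.91, adjusted p = 0.00503). Slc4a7, which brings bicarbonate into the cell with sodium, had 9.99 and 10.5 RPKM in BAFF KO and 19.1 and 19.7 in APRIL KO (-0.86, adjusted p = 0.0128), with WT between at 16.6 and 12.99.

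Slc20a1, Slc25a28 and Slc4a2 were lower by 0.74, 0.62 and 0.47 (adjusted p = 0.0305, 0.0332 and 0.0319). Slc25a28, a mitochondrial iron importer related to Slc25a37, had 7.26 and 6.84 RPKM in BAFF KO, 9.66 and 9.95 in WT and 10.6 and 12.1 in APRIL KO. Slc44a2 was again higher in BAFF KO (0.53, adjusted p = 0.0214), as was Slc37a2, at 25.3 in both BAFF KO libraries, 16.9 and 19.5 in APRIL KO and 20.1 and 20.7 in WT (0.46, adjusted p = 0.0357). Of the 8 calls, that of Slc28a2 held whichever library was left out and that of Slc12a4 was lost only without BAFF KO LPS replicate 1-2 (adjusted p = 0.0538). The other 6 were lost without each of the BAFF KO and APRIL KO LPS libraries in turn. The plot of the called carriers by genotype gives all 9 libraries for each.

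**Figure D4:**
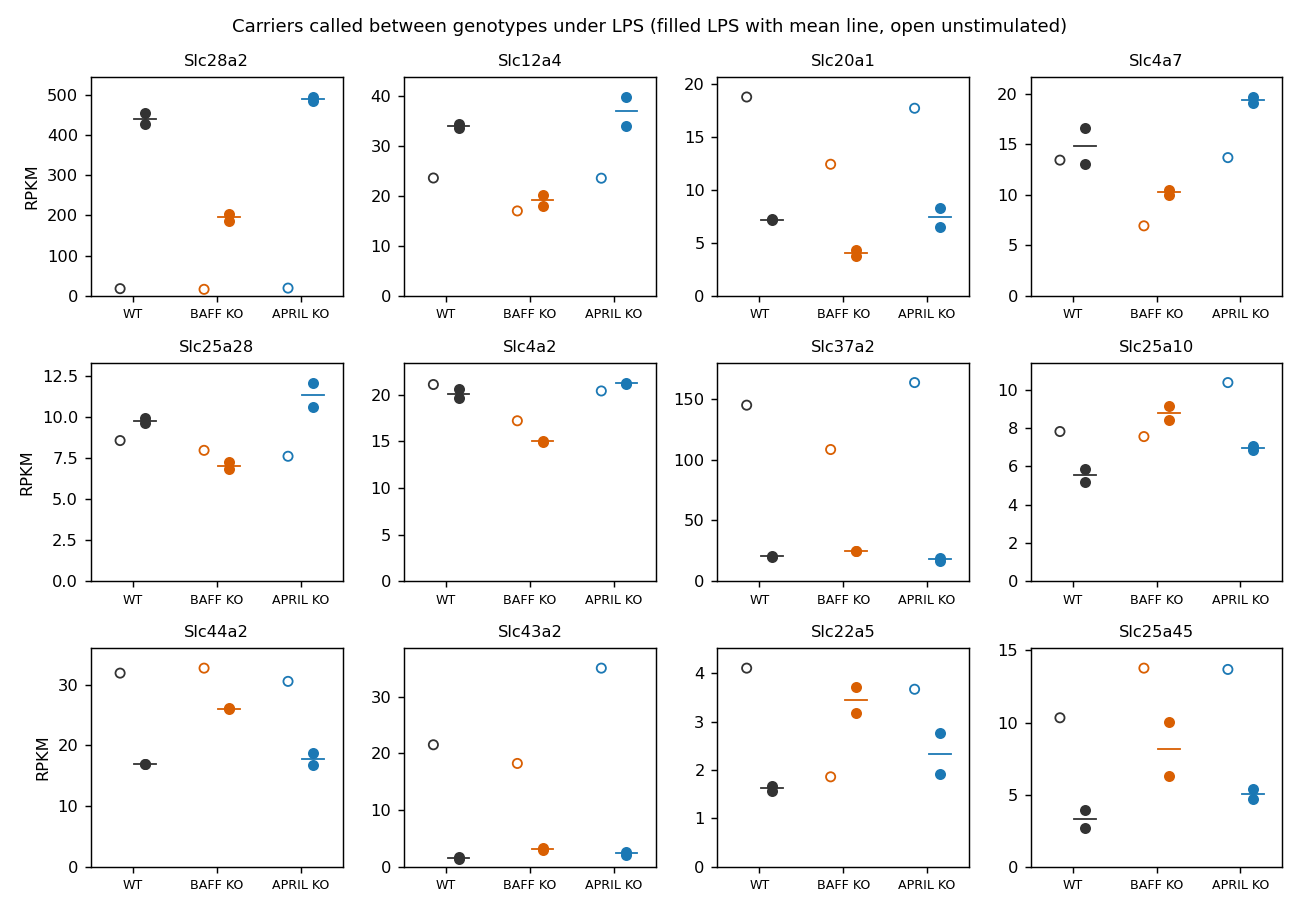
RPKM (linear axes from 0, a separate scale per gene) of the 12 genes called in BAFF KO against WT or against APRIL KO under LPS; filled circles are the 2 LPS libraries of a genotype with a line at their mean, the open circle is its unstimulated library. In Slc28a2 the BAFF KO LPS libraries (187 and 204 RPKM) lie below those of WT and APRIL KO (427 to 495), while its 3 unstimulated libraries (15.8 to 18.9 RPKM) lie near the axis.

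APRIL KO against WT under LPS gave no called carrier in either direction (against 0.0101% of all genes higher and 0.201% lower; limma, smallest adjusted p = 0.211). At an unadjusted p below 0.05 there were 11 (8 higher and 3 lower), or 8.33% of 132, where 15.5% of all genes reached that p. The differences ran from -0.39 to 0.61 on the log2 scale, and that of Slc28a2 was 0.15 ± 0.083 (SE; adjusted p = 0.418). With 2 libraries against 2, small differences would go uncalled. Fibroblast markers (4 of 5 in the table, Lum not listed) summed to 13.9 and 432 RPKM in the 2 APRIL KO LPS libraries and 52.4 and 222 in those of WT, so these pairs were uneven in them. Of 9 skeletal muscle markers, 3 were lower in APRIL KO than WT, with sums of 21.5 to 50.9 against 188 to 267 RPKM. The part of either here was not tested.

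The LPS response itself was compared between genotypes through the interaction term. In BAFF KO against WT 1 carrier responded less (against 0.221% of all genes) and 0 more (against 0.221%). Slc28a2 had an LPS difference of 4.58 on the log2 scale in WT, 3.54 in BAFF KO and 4.62 in APRIL KO, and the BAFF KO minus WT term was -1.03 ± 0.143 (SE; limma adjusted p = 0.0348). The call was lost without any 1 of the 6 LPS libraries (adjusted p up to 0.133), and each unstimulated arm rests on 1 library, whose spread is taken from the LPS groups.

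At an unadjusted p below 0.05 there were 28 carriers, about the share of all genes (21.6%). Of these, 27 had a higher term (20.5% of carriers, against 13.6% of all genes) and 1, Slc28a2, a lower one (0.758% against 7.91%). After median ratio scaling 21 were higher and 9 lower (15.9% and 6.82%, against 9.47% and 10.2% of all genes). The median term was 0.22 over the carriers and 0.08 over all genes as deposited, and 0.14 and 0.00 after scaling, and the single unstimulated BAFF KO library enters all of them. The largest was that of Slc22a5 (1.59 ± 0.306, SE; adjusted p = 0.0721), whose LPS difference was -0.96 in WT, 0.64 in BAFF KO and -0.50 in APRIL KO. Slc37a2 fell with LPS in all genotypes, by 2.77 in WT, 2.06 in BAFF KO and 3.10 in APRIL KO, with a term of 0.71 (adjusted p = 0.0896). For APRIL KO against WT no interaction was called among the carriers or in the whole table (0.0%), and 2 carriers had an unadjusted p below 0.05 (limma, smallest adjusted p = 0.998).

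Without LPS there was 1 library per genotype, so differences between genotypes have no replicate check. At least 2-fold with columns that did not overlap, 0 carriers were higher in BAFF KO than WT (against 1.54% of all genes) and 6 were lower (against 3.96%). They were Slc30a4 (0.790 against 2.11 RPKM), the cationic amino acid carrier Slc7a1 (1.49 against 3.95), Slc22a5 (1.86 against 4.11), the lactate carrier Slc16a1 (0.831 against 1.77), and the mitochondrial carriers Slc25a36 (1.05 against 2.16) and Slc25a30 (9.84 against 20.2). All but Slc25a30 were low in both, with 18 to 85 reads in BAFF KO. In APRIL KO 1 carrier was higher than in WT by this measure, Slc10a3 at 2.69 against 1.15 RPKM from 29 and 12 reads (against 1.42% of all genes), and 0 were lower (against 2.7%). The median log2 difference over carriers and over all genes was -0.13 and -0.07 for BAFF KO, and 0.03 and 0.02 for APRIL KO. The summed level of neutrophil markers was 5940 RPKM in the unstimulated BAFF KO library, 3172 in WT and 2827 in APRIL KO. Skeletal muscle markers summed to 20.2, 185 and 30.7 RPKM and fibroblast markers to 10.3, 129 and 7.10 in BAFF KO, WT and APRIL KO. The part of these cells in the differences was not tested.

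Reads of Slc28a2 need a caution, since 21.4% of its 85-base stretches, the length of a read, also occur in other genes, most of them in the neighbour Gm14085 (mm10 chr2:122484941-122528040). Gm14085 moved in parallel, from 3.55, 1.70 and 2.91 RPKM in unstimulated WT, BAFF KO and APRIL KO to 55.2 and 62.2, 25.7 and 26.2, and 64.5 and 64.6 with LPS. It was lower in BAFF KO than WT under LPS by 1.14 on the log2 scale (limma adjusted p = 0.00144), and its interaction term of -0.39 was not called (adjusted p = 0.255). Slc28a2 had 286 to 351 reads in unstimulated and 3198 to 9153 in LPS libraries, against 49 to 93 and 688 to 1874 for Gm14085, and how reads common to both were assigned is not given in the sources used here. In all, 11 of the 132 genes share at least 5% of such stretches with another gene, among them Slc39a7 (70.5%), which overlaps a predicted gene on the same strand, and Slc25a5 (15.5%). Another 8 genes have at least 10% of exon bases under a gene of the opposite strand, Slc4a2 (13.7%) included, so the levels of these genes are uncertain.

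Beside the numbered families, 28 transport partners, carriers of other families and regulators of transport were listed, of which 23 could be tested. With LPS 3 were higher as deposited (Slco3a1, an organic anion carrier, by 3.21, the regulator Hif1a by 0.71 and the pyruvate carrier subunit Mpc1 by 0.39) and 16 lower, against 18.1% and 62.1% of all genes. After median ratio scaling 6 were higher and 9 lower, against 30.8% and 30.3% of all genes. The median was -0.60 as deposited, against -0.44 for all genes. Tfeb, which drives lysosomal genes, fell from 11.04 to 1.19 RPKM (-2.47), the lysosomal cystine exporter Ctns from 13.1 to 2.82 (-1.90), the heme exporter Flvcr1 from 20.5 to 4.04 (-2.11) and Mfsd12, of lysosomes, from 57.5 to 15.2 (-1.84). Of the 11 Slc genes left out by the rule, 4 rose and 5 fell with LPS as deposited, and under LPS 3 were higher and 2 lower in BAFF KO than in WT.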

How the data were processed

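RNA of macrophages was sequenced as single reads of 85 bases and aligned with STAR to mm10, per the labels' protocols and the submitters' processing notes. How reads were counted, against which gene models and with which filter is not stated there, and the labels name both a directional and a TruSeq kit, so strand is unclear. The authors deposited 1 table of RPKM values for 11164 genes in 18 columns. Symbols came from GENCODE M21 for 11084 IDs and 80 had none. Whole reads behind the RPKM could be recovered for 100.0% of genes within 0.01 reads. 1 read had been added to each count, which lifts very low values, and reads printed here are without it.

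The 2 columns of a library were averaged. Genes with a mean of 1 RPKM in at least 1 of 6 groups (9934) were put on the log2(RPKM + 1) scale and fitted with limma 3.58.1 in R 4.3.3 (6 group means, 3 residual degrees of freedom, trend, 2-sided). Benjamini-Hochberg adjusted p below 0.05 was called. The method was tested on simulated data. Overlaps between genes were computed from GENCODE M21, and promoters are RefSeq's on GRCm38.p6. Carriers were classed by family number.

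Genes named are, among called carriers, the 12 largest rises and 12 largest falls with LPS that held under both scalings without overlap, the 8 largest per direction between genotypes and the 6 largest per interaction. To these were added the 5 highest means, up to 2 rises and 2 falls per class, the 3 genes either side of the threshold and the 4 largest per direction without LPS. Further carriers in the class paragraphs were chosen for their known roles after their values were seen. Alternatives tried were median ratio scaling, no filter, a pseudocount of 0.1, single columns, 18 separate columns, a replicate block and each library left out. The members and lists were chosen with earlier results of these data known.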

Additional observations from a re-analysis of the deposited data

Results flagged for a closer look

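The LPS response of Slc28a2 differed between BAFF KO and WT by the interaction term, at -1.03 on the log2(RPKM + 1) scale (limma, Benjamini-Hochberg adjusted p = 0.0348). Under LPS it was lower in both BAFF KO libraries (187 and 204 RPKM) than in both WT libraries (427 and 456 RPKM), and the neighbour Gm14085, with which it shares sequence, had a term of -0.39 (adjusted p = 0.255). The call was lost without any 1 of the 6 LPS libraries, while the term kept its sign, between -1.10 and -0.97.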

How the results depend on the processing

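Counts of carriers called depended on the processing. In the comparisons for which the rule named a carrier none changed sign under any alternative run. Across settings 310 values kept the call and 40 lost it, and calls were also lost when a library was left out. These carriers were mostly named for large called differences, with LPS also for the same call under both scalings. Their steady sign thus follows in part from the choice. In the LPS comparison other named carriers did change sign after median ratio scaling. Among them were Slc25a3 (-0.48 to 0.04), Slc25a10 (-0.25 to 0.20), Slc22a5 (-0.27 to 0.10) and Slc4a2 (-0.07 to 0.43). Slc25a1 (-0.07 to 0.43) and Slc16a3 (-0.12 to 0.28), mentioned in the class paragraphs, did so too. LPS falls numbered 53 after median ratio scaling (91 as deposited). For BAFF KO against WT (5 higher and 4 lower), 1 was higher with no filter, 0 higher and 1 lower with the lower index column alone, 3 higher with the higher index column alone and 29 and 16 with 18 separate columns. Leaving out each library gave 0 to 6 higher and 1 to 4 lower. For APRIL KO against WT, 18 separate columns gave 8 higher and 3 lower. For BAFF KO against APRIL KO (2 and 6), the lower index column gave 0 and 1, 18 separate columns 19 and 12, and leaving out each library 0 to 2 and 1 to 6. The interaction call of BAFF KO against WT (1 lower) became 0 with no filter, with either index column alone and in 6 of 7 left-out libraries (range 0 to 1), and 27 higher and 4 lower with 18 separate columns. If the 2 columns of a JD number are 1 library, they are not independent, which raises the counts from 18 separate columns. A left-out library or single column leaves fewer reads or samples. For the rest the cause was not tested.

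For LPS libraries of 2 genotypes with the same place in the labels' numbering, deviations from the genotype mean were correlated over 9934 genes. The values were -0.18, -0.102 and 0.12. They cannot decide whether the numbers pair the libraries, since the noise of single libraries enters each of them. With a replicate block, carriers higher and lower were 22 and 85 with LPS, 4 and 3 in BAFF KO against WT and 1 and 4 in BAFF KO against APRIL KO, and the interaction call became 0. In 6 carriers, at least 1 library had fewer than 10 reads, and depth limits what can be read from them.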
